A study of Ricinus communis with 6 samples.

Results

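The genes described here were low in 2 of the 3 libraries of the dwarf castor variety and high in the other 4 libraries of the study. They were chosen by the FPKM values themselves (fragments per gene, scaled for transcript length and library size). The lowest of D2, L1, L2 and L3, with 1 FPKM added, had to be at least 3 times the higher of D1 and D3, with 1 FPKM added, which is called the ratio below. Rows in which the lower of D2 and L1 was at least 3 times the higher of L2 and L3, on the same scale, were left out. Of the 18875 gene rows, 126 reached a ratio of 3, 12 of these were left out, and 114 genes remained. Because these values made the choice, the contrast between D1 and D3 and the other libraries is given as a description and supports nothing.

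The study compared the short-stalk castor bean variety 071113 (libraries D1, D2 and D3) with the high-stalk variety Zhuansihao, spelled Zhansihao in the sample labels (libraries L1, L2 and L3). Both are untreated, field-grown selection lines that share a parent, Zhebisi, and differ in the other, so they are not a mutant and its wild type. RNA was taken from internode 5, counted on the main stem, when plants had 8 to 10 leaves, and about 6 plants were dissected. Which plants went into which library is not stated, and p-values therefore measure the spread between these libraries. Poly(A) RNA was sequenced, and FPKM does not hold the number of reads, so no counting interval can be given. Ratios that repeat among low values put the depth relative to D1 at 1.08 for D3, 1.05 for D2, 1.07 for L1, 0.868 for L2 and 0.937 for L3. D2 stood apart from its own variety. Over 16236 rows with at least 1 FPKM in at least 2 libraries, its Pearson correlation of log2(FPKM + 1) was 0.958 with L1, against 0.792 with D1 and 0.808 with D3, while D1 and D3 correlated at 0.978. The authors left D2 out of their comparison of expression.

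Stem internodes lengthen by cell division followed by cell expansion, and growth ends as cells differentiate and wall layers rich in lignin are laid down. A dividing cell needs a set of proteins, among them those that copy DNA, build the spindle and check that each chromosome is attached to it. In RNA from whole tissue, fewer cells of a type and less RNA per cell cannot be told apart.

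All 114 genes were found in RefSeq's annotation of the castor assembly ASM1957865v1, 113 of them listed as protein-coding, and none has several rows in the table. The annotation gives 0 of them a symbol other than the LOC number. LOC8287605 is listed as a miscellaneous RNA. Only 1 of the genes, the spindle checkpoint gene Mad2 (LOC8278426), is paired with a function in the sources used here, and the others are given by their IDs with no function. The files and the reference pair no IDs with descriptions, so markers of internode tissue and of other cell types were not examined, nor was their part in these results tested.

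**Figure D1:**
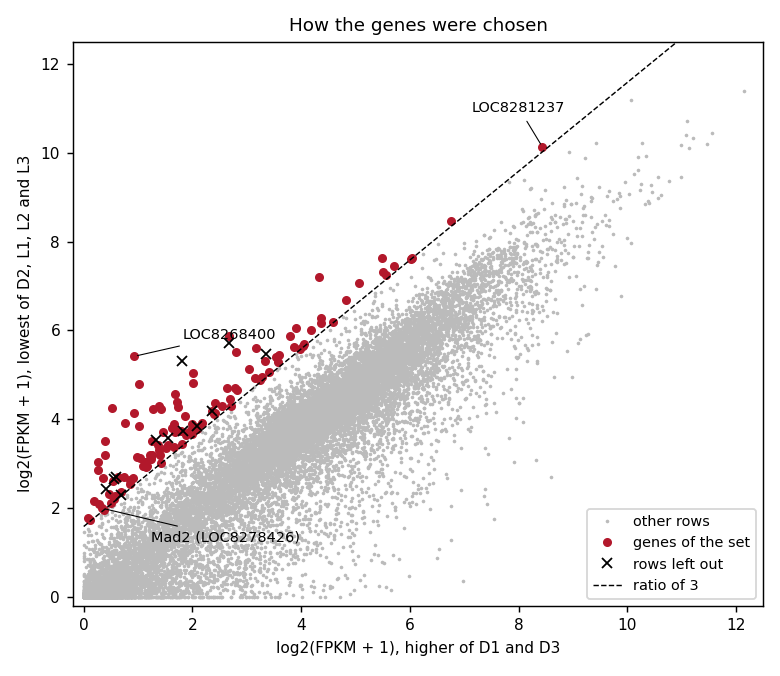
Each point is a row of the FPKM table, with the higher of D1 and D3 on the x axis and the lowest of D2, L1, L2 and L3 on the y axis, both as log2(FPKM + 1). The 114 genes (red) lie on or above the dashed line of a ratio of 3, the 12 rows left out are crosses, and Mad2 lies close to the line with a ratio of 3.15.

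The 114 genes differed widely in level. In D1 they lay between 0 and 346 FPKM with a median of 1.45, and in D3 between 0 and 309.8 with a median of 2.24. In D2 they lay between 3.19 and 1117 FPKM with a median of 37.5. The medians were 29.7 in L1, 17.2 in L2 and 18.6 in L3. Over all 18875 rows the median FPKM of the libraries lay between 12.0 (D1) and 13.9 (D2). The median gene of the set lay below the median row in D1 and D3 and above it in the other 4 libraries.

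Summed, the 114 genes held 984 FPKM in D1 and 1204 in D3, or 0.166% of all FPKM in D1 and 0.205% in D3. They held 8719.5 FPKM in D2 (1.45%), against 8094 for L1 (1.38%), 6870.5 for L2 (1.15%) and 7149.5 for L3 (1.21%), so D2 was above each high-stalk library. LOC8281237 alone made up between 12.8% (D2) and 35.1% (D1) of these sums. Without it D1 held 639 FPKM and D3 894, against 7602 for D2, 6644 for L1, 4669 for L2 and 5357 for L3, and the order of the libraries was the same.

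In D1 and D3 a part of the genes was hardly detected. Of the 114, 28 were under 1 FPKM in both libraries and 5 were listed at 0 in 1 of them, whereas 17 had at least 10 FPKM in both. As FPKM with nothing added, the mean of D1 and D3 was between 0.810% and 27.8% of the mean of D2, L1, L2 and L3, with a median of 7.18%. The 3 genes just inside the limit were LOC8260271, LOC8279547 and LOC8268806, with ratios of 3.006, 3.004 and 3.003. The 3 rows just outside were LOC8288054, LOC8260951 and LOC8288416, with 2.998, 2.993 and 2.986. LOC8268806 had 56.8 FPKM in D1 and 64.9 in D3, against 199 in D2, 245 in L1, 256 in L2 and 197 FPKM in L3. LOC8288054, outside, had 6.06 FPKM in D1 and 7.76 in D3, against 51.6 in D2, 43.4 in L1, 25.3 in L2 and 25.3 FPKM in L3. The limit passes through a run of closely spaced ratios.

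**Figure D2:**
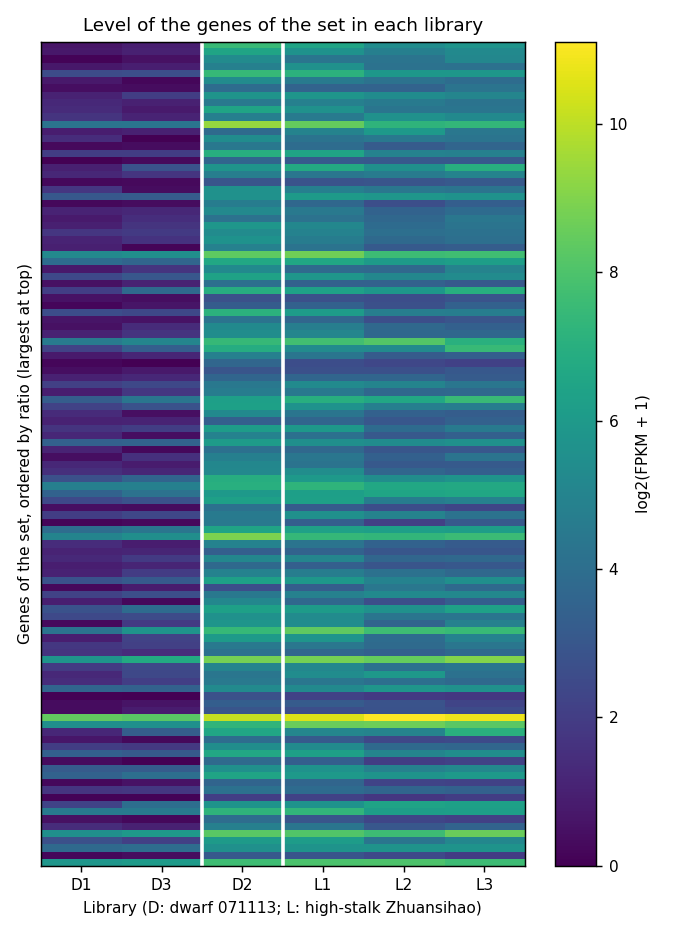
Colour shows log2(FPKM + 1) of the 114 genes (one row each, ordered by ratio with the largest at the top) in the 6 libraries, with white lines on either side of D2. The D1 and D3 columns are dark and the D2 column is as bright as those of L1, L2 and L3, as the choice of the genes sets; the median in D2 was 37.5 FPKM, against 29.7 (L1), 17.2 (L2) and 18.6 (L3).

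The number of genes was highest with D3 or L2 left out. Leaving out a library takes a condition from the ratio, which then cannot fall, so a rise is in part built in. With D3 left out the rule chose 283 rows, among them all 114, and with L2 left out 216 rows, 111 of them among the 114. Leaving out D1, D2, L1 or L3 gave between 113 and 164. Of the rows with at least a ratio of 3 between L1, L2 and L3 and the higher of D1 and D3, 142 in all, D2 was high in the 114 and in the 12 left out, low by the same measure in 8, and between in 8. The reverse rule, high in D1 and D3 and low in the other 4, would choose 141 rows.

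Mad2 is the one gene of the set with a function in these sources. Its protein belongs to the spindle assembly checkpoint, which holds back the separation of sister chromatids until every chromosome is attached to the spindle. Mad2 had 0.265 FPKM in D1 and 0 in D3, against 13.3 in D2, 9.00 in L1, 2.99 in L2 and 3.47 FPKM in L3. D2 was the highest library, L1 was next, and L2 and L3 lay close together above D1 and D3. The rule sets a common lower bound on D2 and the high-stalk libraries. It also leaves out rows with D2 and L1 far above L2 and L3. Like every row tested, Mad2 did not pass the test of D2 against the high-stalk libraries (log2 difference 1.35, standard error 0.61 from limma). In the pair of D1 and D3 against the 3 high-stalk libraries its log2 fold change was -2.32 (standard error 0.46), which describes a gene chosen on this contrast.

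The other 7 cell cycle genes that the paper names by ID were outside the set, with ratios between 1.20 and 1.93. They are a second Mad2 gene (LOC8272625), the cohesin subunit Rad21 (LOC8261128), cyclin-A (LOC8288529), a cell division control protein (LOC8283237) and 3 subunits of the origin recognition complex, which binds DNA where its copying begins. Of these 3 subunits, LOC8260621 came nearest to the limit. It had 0.511 FPKM in D1 and 0.240 in D3, against 3.26 in D2, 4.02 in L1, 2.27 in L2 and 1.91 FPKM in L3. The second Mad2 gene had 3.85 FPKM in D1 and 3.20 in D3, against 23.7 in D2, 22.7 in L1, 5.76 in L2 and 7.09 FPKM in L3. Cyclin-A, which drives cells through DNA synthesis and into mitosis, had 0 FPKM in D1 and 0.211 in D3, against 4.29 in D2, 4.28 in L1, 0.685 in L2 and 0.605 FPKM in L3. In all 7 the lowest of the 4 other libraries was L2 or L3.

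D2 was above each high-stalk library in 5 of the 8 cell cycle genes, against 35.6% of all 16236 rows. In D2 against L1, L2 and L3, 0 of the 8 passed limma at an adjusted p under 0.05, against 0% of all rows tested. At p under 0.05 without adjustment, 0 of the 8 were higher or lower, against 4.91% of all rows higher and 5.42% lower. The largest log2 difference among the tested 8 was that of Mad2 LOC8278426, followed by the second Mad2 gene (log2 difference 1.18, standard error 0.80, unadjusted p = 0.212 and adjusted p = 0.532 from limma). The paper picked these genes from the same libraries, and they are not independent of the contrast with D1 and D3.

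**Figure D3:**
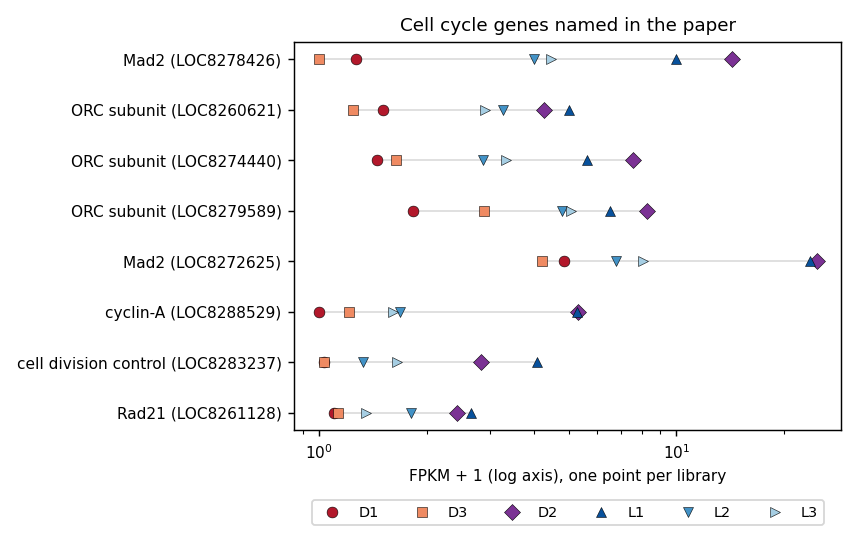
FPKM + 1 (log axis) of the 8 cell cycle genes that the paper names, ordered by ratio, with one point per library. The first row, Mad2 LOC8278426, is the only one with a ratio of at least 3; D1 and D3 are the 2 lowest points in each row, and D2 or L1 is the highest.

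Of the 32 genes that the paper names by ID and that were looked up here, Mad2 was the only one in the set. SAU50 (LOC107260773), of the small auxin-up RNA family, came closest to it with a ratio of 2.57. It had 1.21 FPKM in D1 and 1.49 in D3, against 8.07 in D2, 14.5 in L1, 5.40 in L2 and 6.42 FPKM in L3. Next came 2 of the 3 expansins looked up, a family that loosens the cell wall. EXPB3 (LOC8262087) had a ratio of 2.35 and EXPA4 (LOC8282200) one of 2.29. EXPA4 had 25.4 FPKM in D1 and 4.80 in D3, against 181 in D2, 106 in L1, 64.5 in L2 and 59.7 FPKM in L3, and its higher dwarf value, in D1, kept it under the limit. EXLA2 (LOC8278145), the other expansin, had a ratio of 1.12. The 8 auxin genes had ratios between 0.255 and 2.57, and the 5 lignin genes between 0.124 and 0.653. All 5 lignin genes were higher in D1 and D3 than in each other library. The paper picked these 5 as up-regulated in the dwarf from the same libraries, so their height over the high-stalk libraries describes that choice. It reports other peroxidase genes as down-regulated. The peroxidase LOC8271940 was low throughout, with 0.532 FPKM in D1 and 0.389 in D3.

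The 10 genes with the largest ratios were at most at 5.34 FPKM in D1 and D3. LOC8268400 led with a ratio of 22.5. It had 0.561 FPKM in D1 and 0.896 in D3, against 176 in D2, 89.6 in L1, 41.7 in L2 and 52.9 FPKM in L3. The mean of the 4 high libraries was 123 times that of D1 and D3. LOC107262323 had 0.624 FPKM in D1 and 1.02 in D3, against 88.2 in D2, 50.2 in L1, 26.9 in L2 and 37.8 FPKM in L3, a factor of 61.8 between the means. In both genes the order was D2, L1, L3 and L2 from the highest down. LOC8281988 had 1.60 FPKM in D1 and 0.759 in D3, against 89.5 in D2, 48.7 in L1, 18.7 in L2 and 19.1 FPKM in L3, and LOC8274179 had 0.684 FPKM in D1 and 0.142 in D3, against 40.3 in D2, 23.0 in L1, 17.4 in L2 and 14.1 FPKM in L3. They too were highest in D2, with L1 second.

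The remaining 6 of the 10 did not share one order. LOC8271713 had 0.0902 FPKM in D1 and 0.432 in D3, against 40.4 in D2, 18.9 in L1, 18.1 in L2 and 33.9 FPKM in L3, and LOC8263155 had 0.311 FPKM in D1 and 0.277 in D3, against 14.4 in D2, 10.5 in L1, 10.4 in L2 and 18.5 FPKM in L3. In this pair L3 was well above L1 and L2, which differed little. LOC8271380 had 0.654 FPKM in D1 and 0.889 in D3, against 27.8 in D2, 48.6 in L1, 17.5 in L2 and 16.7 FPKM in L3, and L1 was the highest. LOC8267002 had 4.94 FPKM in D1 and 5.34 in D3, against 171 in D2, 139 in L1, 57.6 in L2 and 58.6 FPKM in L3, with D2 highest, L1 next, and L2 and L3 nearly equal. LOC8274885 had 1.06 FPKM in D1 and 3.05 in D3, against 52.0 in D2, 54.7 in L1, 41.5 in L2 and 31.8 FPKM in L3, and LOC8274788 had 1.43 FPKM in D1 and 1.03 in D3, against 21.6 in D2, 27.2 in L1, 22.4 in L2 and 17.7 FPKM in L3. In these last 2 genes L1 was the highest and D2 lay within the high-stalk range.

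**Figure D4:**
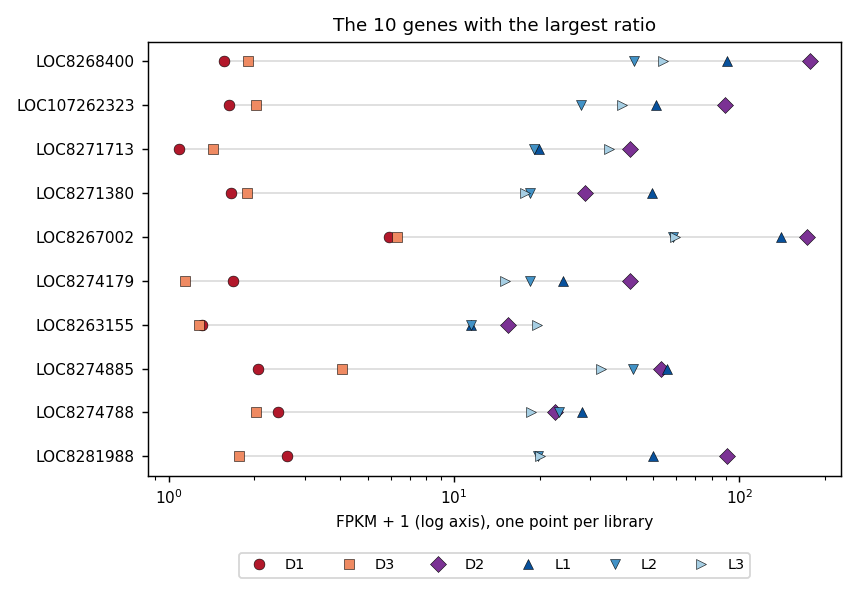
FPKM + 1 (log axis) of the 10 genes with the largest ratios, one point per library. D1 and D3 lie at the left of each row, at most at 5.34 FPKM (LOC8267002 in D3), and D2 is the rightmost point in 6 of the 10.

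Of the 5 most abundant genes, 4 had ratios between 3.02 and 3.29, and LOC8270867 had 7.38. LOC8281237 had 346 FPKM in D1 and 309.8 in D3, against 1117 in D2, 1450.1 in L1, 2201 in L2 and 1792 FPKM in L3. It was a highly expressed gene in every library, and D2 was below each high-stalk library. LOC8282375 had 52.2 FPKM in D1 and 106 in D3, against 437 in D2, 445 in L1, 353 in L2 and 527 FPKM in L3, where D2 lay within the high-stalk range and D3 was above D1. LOC8270867 had 18.1 FPKM in D1 and 19.0 in D3, against 659 in D2, 357 in L1, 146 in L2 and 165 FPKM in L3, and D2 was above each high-stalk library. LOC8265899 had 45.7 FPKM in D1 and 46.2 in D3, against 151 in D2, 379.8 in L1, 397 in L2 and 308 FPKM in L3, and LOC8286891 had 45.4 FPKM in D1 and 64.1 in D3, against 304 in D2, 272 in L1, 196 in L2 and 381 FPKM in L3. LOC8265899 was nearly equal in D1 and D3, and its D2 value was under the lowest high-stalk value.

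The genes listed at 0 in 1 of the dwarf pair were Mad2, LOC8260603, LOC8268690, LOC8274833 and LOC8261192, named here because they are few. LOC8260603 had 1.68 FPKM in D1 and 0 in D3, against 41.4 in D2, 17.7 in L1, 21.0 in L2 and 18.4 FPKM in L3. LOC8268690 had 0 FPKM in D1 and 0.205 in D3, against 11.2 in D2, 7.96 in L1, 7.45 in L2 and 7.22 FPKM in L3, and its high-stalk values were within a narrow range. LOC8274833 had 0.141 FPKM in D1 and 0 in D3, against 11.9 in D2, 5.11 in L1, 4.09 in L2 and 3.46 FPKM in L3. LOC8261192 had 0.0594 FPKM in D1 and 0 in D3, against 5.82 in D2, 3.38 in L1, 2.66 in L2 and 2.44 FPKM in L3, the lowest levels of these 5 in the 4 high libraries. None of the 114 was listed at 0 in both D1 and D3.

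D1 and D3 were not at the same level in these genes. D3 was above D1 in 81 of the 114 (71.1%), against 50.1% of the 16236 rows. The median difference of D3 over D1 was 0.20 on the log2(FPKM + 1) scale, against 0.00040 over those rows, and it ranged from -1.42 to 2.02. The rule caps only the higher of the pair and leaves the lower one free. Many of these values were low, with 42 of the 114 under 1 FPKM in D1 and 36 in D3. The largest difference was in LOC8267127, which had 1.39 FPKM in D1 and 8.67 in D3, against 93.9 in D2, 33.2 in L1, 29.8 in L2 and 132 FPKM in L3. The largest in the other direction was in LOC8260603, given above.

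As the rule sets, nearly all of the 114 were called lower in D1 and D3 than in the high-stalk libraries. With limma on log2(FPKM + 1), 105 of the 114 were called (an adjusted p under 0.05 with a fall of 2 or more on the log2 scale), against 1.19% of the 15925 rows tested, and they made up 55.6% of the 189 rows called lower. Nothing is read from this count. The log2 fold changes lay between -5.11 and -1.81, with a median of -2.66 (median of all rows tested -0.06). Of the 9 not called, 4 missed the adjusted p and 5 the fold. With only 1 dwarf library 0 of the 114 were called, against 114 lower at an unadjusted p under 0.05 without D3 and 112 without D1. Without L1, L2 or L3 between 79 and 92 were called.

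With D2 counted as a dwarf library, the rule sets 1 high and 2 low dwarf libraries in each of the 114 genes, so the counts that follow describe the choice and nothing is read from them. Over all 6 libraries limma called 0 of them lower, against 0.0123% of the 16236 rows tested, and 19 (16.7%) were lower at an unadjusted p under 0.05, against 4.17% of all rows. Their log2 fold changes lay between -3.22 and -0.89 with adjusted p between 0.299 and 0.824. LOC8265899 had the lowest adjusted p. The same fit without D2 is the one above, with 105 called, while without D1, D3, L1, L2 or L3 it called 0, with between 4 and 8 lower at an unadjusted p under 0.05.

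Only in part did the rule fix the order of D2 and the high-stalk libraries, by asking D2 to be high and by leaving out 12 rows. In 67 of the 114 genes (58.8%) D2 was above each of L1, L2 and L3, against 35.6% of the 16236 rows. In 10 (8.77%) it was below each of them, against 32.2%, and in 37 it lay within their range. Counts by level are given as a description. In the 40 genes with any of D2, L1, L2 and L3 under 10 FPKM, D2 was above in 30 and below in 1. In the 19 with at least 50 FPKM in all 4, D2 was above in 6 and below in 5. The shares of all rows at these levels were not counted, and the levels were cut on values that the rule read. Nothing is read from the counts by level. Every one of the 12 rows left out had D2 and L1 above L2 and L3, and in 10 of them D2 was above each high-stalk library, so with them the count is 77 of 126. The rule also kept out the 8 rows with D2 low as well and the 8 with D2 between. Over all 142 rows chosen without reading D2, a count added after the data were seen, D2 was above each high-stalk library in 77 (54.2%) and below each in 26 (18.3%). Without L1, D2 was above both other high-stalk libraries in 80 of the 114, without L3 in 78 and without L2 in 67, against 43.8%, 41.1% and 38.7% of all rows.

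The difference between D2 and the mean of L1, L2 and L3 had a median of 0.72 over the 114 genes on the log2(FPKM + 1) scale, against 0.03 over all rows, and ranged from -1.27 to 1.94. As FPKM, D2 was between 0.359 and 3.82 times the high-stalk mean, with a median of 1.62 times. It was at least 1 higher on the log2 scale in 42 genes and at least 1 lower in 3. The same shares over all rows were not counted, and the rule's lower bound on D2 limits how many can be lower. Nothing is read from these 2 counts.

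The test of D2 against L1, L2 and L3 has 1 dwarf library, which is taken to vary like the high-stalk ones. With limma 0 of the 114 were called higher and 0 lower, as for all 15880 rows tested (0% in either direction), and the lowest adjusted p of a gene of the set was 0.475. At an unadjusted p under 0.05, 28 of the 114 (24.6%) were higher, against 4.91% of all rows, and 2 (1.75%) were lower, against 5.42%. The count of 28 depended on the high-stalk libraries. It was 61 without L1 (13.6% of all rows), 11 without L2 (2.74%) and 14 without L3 (2.88%). The genes are not independent of each other, and the lower bound that the rule sets on D2 limits how many can be lower. The rule read D2, L1, L2 and L3 and kept rows with a high D2, so all rows are not a like comparison. These counts describe the choice, and nothing is read from them.

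The smallest of these p-values belonged to LOC8258458, named after its values were seen. It had 31.0 FPKM in D1 and 44.5 in D3, and 475 FPKM in D2, against 168 FPKM in L1, 158 FPKM in L2 and 190.0 FPKM in L3 (log2 difference 1.46, standard error 0.20, unadjusted p = 0.00167 and adjusted p = 0.475 from limma). Its 3 high-stalk values lay close together and D2 was above all of them. LOC8260603 was second, with 41.4 FPKM in D2, against 17.7 FPKM in L1, 21.0 FPKM in L2 and 18.4 FPKM in L3 (log2 difference 1.08, standard error 0.18, unadjusted p = 0.00320 and adjusted p = 0.475 from limma). The 2 genes lower in D2 were LOC8265899 and LOC8284233. LOC8265899 had 151 FPKM in D2, against 379.8 FPKM in L1, 397 FPKM in L2 and 308 FPKM in L3 (log2 difference -1.24, standard error 0.24, unadjusted p = 0.00617 and adjusted p = 0.475 from limma). LOC8284233 had 21.1 FPKM in D2, against 28.7 FPKM in L1, 37.9 FPKM in L2 and 35.7 FPKM in L3 (log2 difference -0.66, standard error 0.22, unadjusted p = 0.0373 and adjusted p = 0.475 from limma).

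Among the high-stalk libraries, L1 was the one most often on top. L1 was above both L2 and L3 in 78 of the 114 genes (68.4%), against 42% of all rows, with a median difference from their mean of 0.53 on the log2 scale, against 0.04. Of D2, L1, L2 and L3, the lowest was L2 in 64 genes, L3 in 34, D2 in 10 and L1 in 6. The lowest library was not counted over all rows, and the rule's lower bound on these libraries enters the counts. Nothing is read from them. L2 was also the library of the lowest relative depth, and the part of depth in these counts was not tested.

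The 4 high libraries can be read as a higher and a lower pair in each gene. D2 and L1 were the higher pair in 72 genes (63.2%), against 33% of all rows. D2 and L3 were it in 16 genes (14%), against 12.8%. L1 and L2 were it in 10 genes (8.77%), against 17.5%, and L2 and L3 in 7 genes (6.14%), against 23.5%. L1 and L3 were the pair in 6 genes (5.26%), against 6.55%, and D2 and L2 in 3 (2.63%), against 6.62%. The rule took out 12 rows of the first kind. With them it would be 84 of 126. Its lower bound on D2 also kept out the 8 rows with D2 low and the 8 with D2 between. In those rows D2 was below each high-stalk library and so in the lower pair. The shares of the pairs are therefore set in part by the rule.

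**Figure D5:**
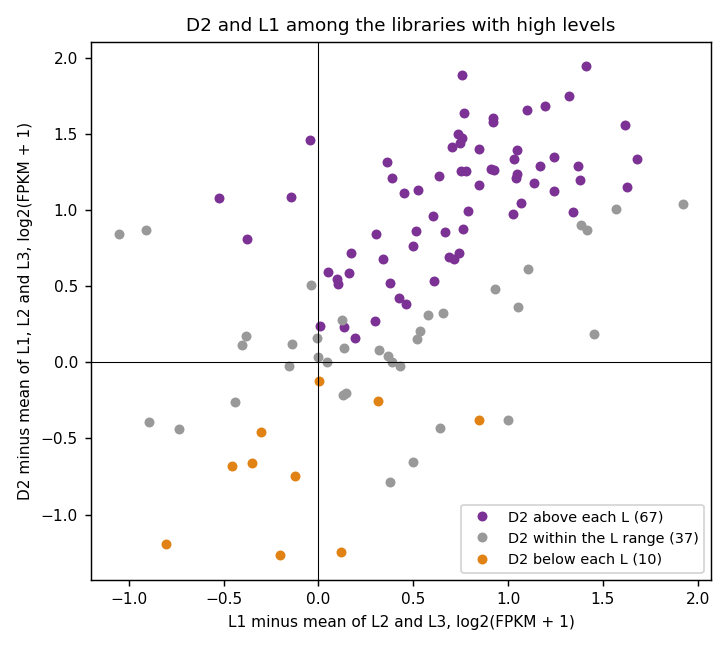
Each point is 1 of the 114 genes, with L1 minus the mean of L2 and L3 on the x axis and D2 minus the mean of L1, L2 and L3 on the y axis, both as differences of log2(FPKM + 1), coloured by where D2 lies. Most genes are at the upper right, with D2 above each high-stalk library in 67 and below each in 10; L1 enters both axes.

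A few genes with other orders were picked after their values were seen. LOC8267127, given above, and LOC8273656 were high in D2 and L3. LOC8273656 had 3.50 FPKM in D1 and 9.03 in D3, against 118 in D2, 39.9 in L1, 38.7 in L2 and 180.5 FPKM in L3. In both, L3 was the highest library and L1 and L2 lay close together. LOC8273780 had 0.874 FPKM in D1 and 1.01 in D3, against 13.3 in D2, 30.4 in L1, 60.8 in L2 and 20.2 FPKM in L3, and LOC8276345 had 0.218 FPKM in D1 and 0.810 in D3, against 5.22 in D2, 8.82 in L1, 20.4 in L2 and 12.7 FPKM in L3. In these 2 genes L2 was the highest library and D2 the lowest of the 4. Of all 114, LOC8273780 had the most negative difference between D2 and the high-stalk mean (log2 difference -1.27, standard error 0.64, unadjusted p = 0.117 and adjusted p = 0.483 from limma).

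The 4 high libraries differed more in these genes than in most rows. The highest of D2, L1, L2 and L3 was between 1.10 and 6.56 times the lowest, with a median of 2.57 times, against a median of 1.48 times over the 14762 rows with at least 1 FPKM in all 4. It was under 1.5 times in 12 of the 114 (10.5%), against 51.2% of those rows. The genes were chosen from these same values for a gap between libraries, and the comparison rows were not matched for level. The wider spread is therefore a description. The flattest were LOC8260271, LOC8280934 and LOC8288141. LOC8260271 had 12.8 FPKM in D1 and 14.8 in D3, against 46.6 in D2, 50.9 in L1, 50.4 in L2 and 51.2 FPKM in L3. LOC8280934 had 0.457 FPKM in D1 and 0.330 in D3, against 5.74 in D2, 5.57 in L1, 5.10 in L2 and 6.09 FPKM in L3, and LOC8288141 had 0.176 FPKM in D1 and 0.198 in D3, against 6.66 in D2, 6.25 in L1, 6.51 in L2 and 7.67 FPKM in L3. In LOC8280934 and LOC8288141 D2 lay within the high-stalk range, and in LOC8260271 it was slightly below each high-stalk library. In these 3 genes D1 and D3 were close to each other. The widest was LOC8287605, the miscellaneous RNA, which had 0.109 FPKM in D1 and 0.211 in D3, against 21.4 in D2, 9.26 in L1, 3.26 in L2 and 7.50 FPKM in L3.

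Only 1 pair of the 114 were next to each other among the protein-coding genes of the RefSeq assembly, LOC8284234 and LOC8284233. LOC8284234 had 5.55 FPKM in D1 and 3.31 in D3, against 66.0 in D2, 69.6 in L1, 18.7 in L2 and 34.4 FPKM in L3. LOC8284233 had 3.61 FPKM in D1 and 5.44 in D3, against 21.1 in D2, 28.7 in L1, 37.9 in L2 and 35.7 FPKM in L3. The neighbours differed in D2 and L1, which were the higher pair in LOC8284234 and the lower pair in LOC8284233.

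The 12 rows left out were also low in D1 and D3, and D2 and L1 were far above L2 and L3. LOC8273057 had the highest D2 and L1 values of them, 1.59 FPKM in D1 and 5.39 in D3, against 454 in D2, 330.4 in L1, 58.8 in L2 and 51.5 FPKM in L3. LOC8281166 had the largest ratio, 11.3, and had 2.51 FPKM in D1 and 1.71 in D3, against 171 in D2, 134 in L1, 38.5 in L2 and 39.3 FPKM in L3. In the 12, the lower of D2 and L1 was between 3.02 and 5.96 times the higher of L2 and L3 with 1 FPKM added.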

How the data were processed

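The authors filtered the reads and deposited FPKM per gene and library, with replicates not pooled. Which aligner, counter, annotation and build they used is not given in the sources used here. Their own test, DESeq2 on read counts, was not repeated, since FPKM holds no counts. Rows were chosen as described in the report, and the genes and lists were chosen with earlier results of these data known.

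Values were analysed as log2(FPKM + 1), which understates changes of low genes. A row was tested if 2 or more of the compared libraries reached 1 FPKM. The test was limma (version 3.58.1, R 4.3.3) with its trend option, p-values were adjusted by Benjamini-Hochberg over every row tested, and a call needed an adjusted p under 0.05 together with a log2 fold change of 2 or more in either direction. It was checked on simulated data. Sums and orders were made in Python 3.11.15 with numpy 2.4.6, pandas 2.3.3 and, for figures, matplotlib 3.10.9. The RefSeq table of assembly ASM1957865v1, which matched 18432 of 18875 rows, served for names and neighbours only.

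By rule the text names each gene with a name, the 10 largest ratios, the 5 most abundant genes, 3 genes either side of the limit and neighbouring genes. Others were named after their values were seen. Lists of genes by description, like proteins and promoter motifs were not used here, as no description or sequence was at hand. Alternatives were other pseudocounts, filters, folds and scaling, limma without the trend, the replicate number as a block and each library left out.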

Additional observations from a re-analysis of the deposited data

How the results depend on the processing

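The number of genes chosen varied with the 1 FPKM added and with the library left out. With 0.1 FPKM added the rule chose 273 rows, 111 of them among the 114, and with a fold of 4 it chose 45. With libraries left out in turn, which cannot lower the ratio, it chose between 113 and 283. With 0.5 FPKM added it chose 168, and with median-ratio scaling 109.

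With the dwarf pair D1 and D3 set against the 3 high-stalk libraries, the number of the 114 genes called lower lay between 0 and 92 with a library left out, the 0 being those with 1 dwarf library. With the replicate number as a block it was 0, against 114 lower at an unadjusted p under 0.05. The labels share only a number: the deviations from the variety means correlated at -0.47 between D1 and L1, -0.55 between D2 and L2 and 0.33 between D3 and L3, and 1 of 6 libraries correlated best with its own number. Under the other settings between 90 and 110 were called, the 90 being of the 97 tested with a mean of at least 5 FPKM required. Over all 6 libraries between 0 and 105 were called with a library left out, 105 being the fit without D2, and 0 with the replicate block. For D2 against L1, L2 and L3, 0 were called under each setting run; no paired analysis was possible for it because D2 has a single partner.

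For 32 single genes, the log2 fold change in D1 and D3 lay between -6.17 and -1.71 over 377 values under these settings, a sign that the rule sets, and the call ended in 88 and was gained in 4. With a mean of at least 5 FPKM required, 25 of the 32 were tested. FPKM holds no read numbers, so the precision of values near 0 is not known.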
